A study of Homo sapiens with 8 samples.

Results

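The tensins are encoded by 4 genes, *TNS1*, *TNS2*, *TNS3* and *TNS4*, of the 22439 genes that could be named on the arrays, and were measured by 6 of 58201 probes. *TNS1*, *TNS2* and *TNS3* were taken in by family name. *TNS4* was chosen on its measured log2 ratios, because its level had been seen to be lower after RNA duplexes entered the cells and higher after *LOXL2* editing, so its ratios are described here without a test. Tensins are adaptor proteins at the adhesions where integrins, the cell's receptors for the extracellular matrix, are tied to the actin cytoskeleton. All of them carry an SH2 domain, which binds phosphorylated tyrosines, and a PTB domain, which binds the tails of integrin beta chains. *TNS1*, *TNS2* and *TNS3* also have an amino-terminal part that *TNS4* (CTEN) lacks, and with it the ability of the long tensins to hold actin. Epidermal growth factor is known to lower *TNS3* and raise *TNS4* in epithelial cells, an exchange described as the tensin switch.

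The study compared RNA of treated and control human lung cancer cells on 8 Agilent 2-color arrays, all on 1 slide. Every array carried the treated RNA in red (Cy5) and its control in green (Cy3), and no dyes were swapped. The lung squamous cell carcinoma (LUSQ) lines EBC-1 and SK-MES-1 received *miR-150-3p*, with 1 array each. SBC-3 small cell lung cancer cells received siDONSON-1, siDONSON-2 or siDONSON-3, each an siRNA named for *DONSON*, with 1 array each, and A549 lung adenocarcinoma cells with *LOXL2* edited by CRISPR/Cas9 (GE1, GE2 and GE3) had 3 arrays. For the transfections, the control is named mock in 1 label and no transfection in another, and for A549 it is cells without genome editing. The labels do not say whether GE1, GE2 and GE3 are separate clones, nor whether the controls of a line came from separate cultures. The p-values thus measure the spread between these arrays, which may be technical among the edited arrays and among the controls. For the ratios, this spread also holds differences between EBC-1 and SK-MES-1 and between the siDONSON siRNAs. A ratio of log2(Cy5/Cy3) below 0 means a lower level in the treated cells. In RNA from bulk cells, fewer cells expressing a gene and less RNA per cell cannot be told apart.

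The labels were checked first. The log2 ratio of *DONSON* was −2.15, −1.79 and −2.11 on the siDONSON arrays, and that of *LOXL2* was −2.49, −2.67 and −2.59 on the GE arrays. Of 7 squamous markers, 1 (*SOX2*) was well above background in the EBC-1 control and 4 (*KRT14*, *PKP1*, *SOX2* and *TP63*) in the SK-MES-1 control, so most defining markers of squamous cells were not above background in EBC-1. Of 6 neuroendocrine markers, 3 (*CHGA*, *NEUROD1* and *SYP*) were above background on all SBC-3 arrays, and of 4 alveolar markers 1 (*NAPSA*) on all A549 arrays. The markers were not confined to these lines, as *NAPSA* was also above background in EBC-1 and SK-MES-1, *SFTPC* and *NCAM1* in SK-MES-1, *SOX2* and *TP63* in SBC-3, and *SOX2* and *CHGA* in A549. *COL1A1* of fibroblasts and *PTPRC* of leukocytes were above background in the controls of all 4 lines, and their part in the results was not tested. Per array, 41.1% to 46.4% of the spots were well above background in green and 48.5% to 56.2% in red.

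*TNS4*, the short tensin that has been linked to the stability of the receptors MET and EGFR, was the tensin furthest from 0 on most arrays. It has 1 probe (A_23_P207850), which was well above background in both channels on all 8 arrays. The log2 ratio was −1.05 ± 0.23 for EBC-1 and −0.63 ± 0.21 for SK-MES-1 (± the error given by the scanner software). It was −1.20 ± 0.24 with siDONSON-1, −1.30 ± 0.25 with siDONSON-2 and −0.83 ± 0.23 with siDONSON-3. In A549 cells it was 1.08 ± 0.23 in GE1, 1.49 ± 0.25 in GE2 and 1.43 ± 0.24 in GE3. All 5 arrays of cells given an RNA duplex were thus below 0 and all 3 arrays of edited cells above 0. The group means were −0.84 ± 0.30 (SD, n = 2) for *miR-150-3p*, −1.11 ± 0.25 (SD, n = 3) for siDONSON and 1.33 ± 0.22 (SD, n = 3) for *LOXL2* editing. These values chose the gene and carry no test.

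In linear units, the *TNS4* signal after *miR-150-3p* was 48.2% of the control signal for EBC-1 and 64.6% for SK-MES-1. After siDONSON it was 43.4%, 40.6% and 56.2% of the control. In the edited cells it was 211%, 280% and 269% of the control. The signals behind these shares differed widely between the lines. The control intensity of the probe was 2368 for EBC-1 and 1521 for SK-MES-1, 380 to 422 on the SBC-3 arrays and 7135 to 7236 on the A549 arrays. The treated intensity was 154 to 228 on the SBC-3 arrays and 15063 to 20287 on the A549 arrays, none of it saturated.

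**Figure D1:**
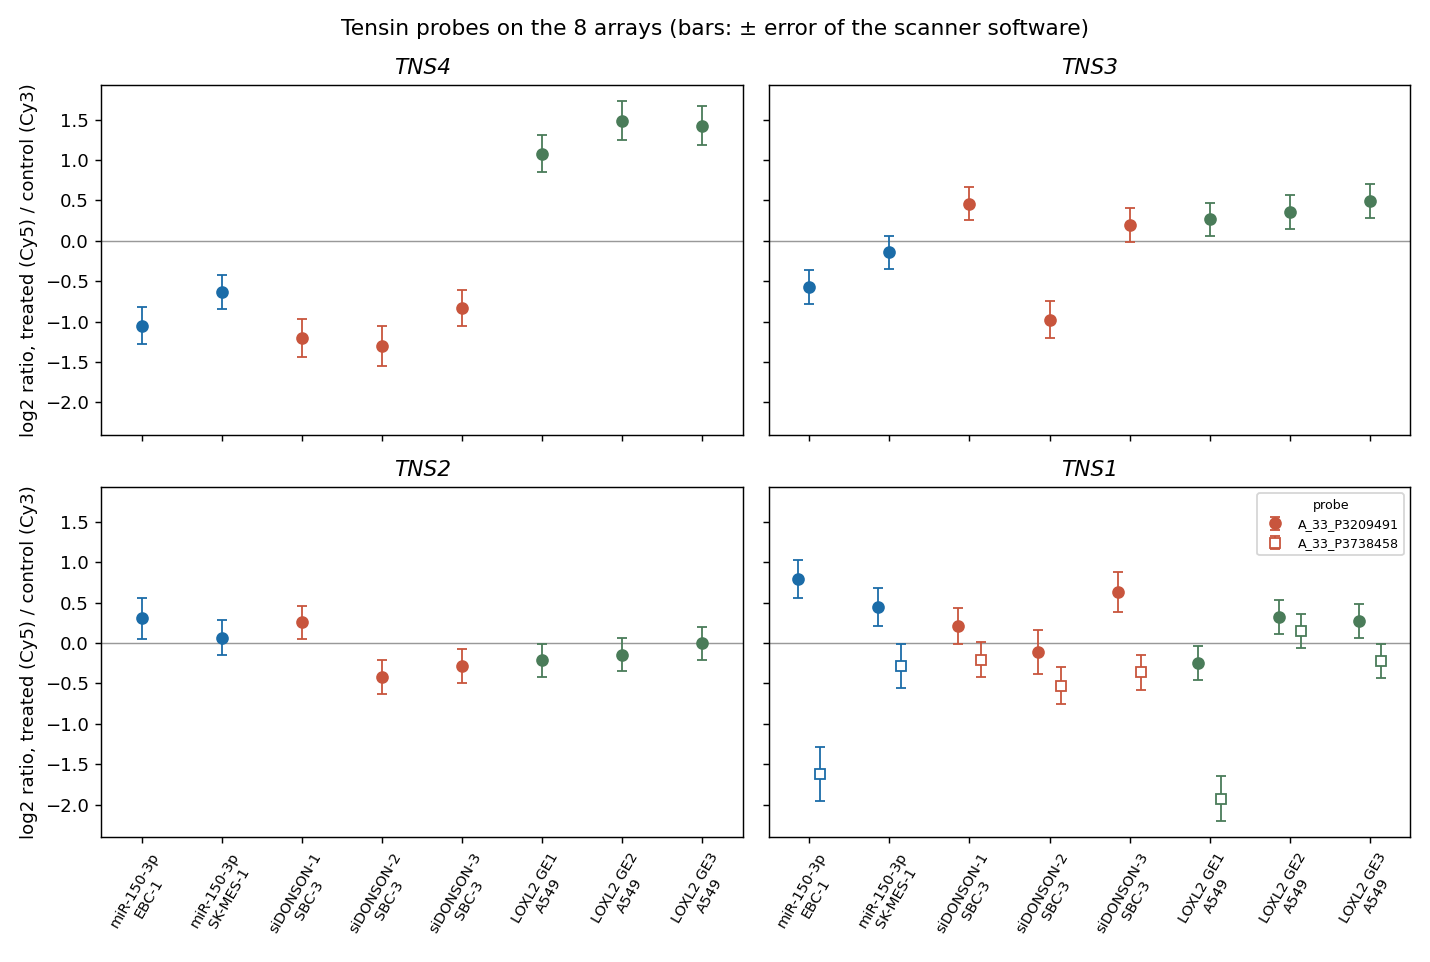
Log2 ratio of treated (Cy5) over control (Cy3) signal for the probes of *TNS4*, *TNS3*, *TNS2* and *TNS1* on each of the 8 arrays, with bars for ± the error of the scanner software and colors for the groups. *TNS4* sits between −1.30 and −0.63 on the 5 duplex arrays and between 1.08 and 1.49 on the 3 edited arrays. *TNS2* and *TNS3* lie on both sides of 0, with *TNS3* above 0 on all 3 edited arrays. The *TNS1* probes part on several arrays, and A_33_P3738458 reaches −1.62 in EBC-1 and −1.93 in GE1. The *TNS1* probe A_24_P105733, not well above background in green on any array, is not shown.

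Ranked among all genes counted on the same array, *TNS4* lay near the lower end after RNA duplexes and near the upper end after editing. In EBC-1 5.41% of the genes had a lower ratio, and in SK-MES-1 4.01%. With siDONSON-1, siDONSON-2 and siDONSON-3 the shares were 1.05%, 1.61% and 3.08%. In GE1, GE2 and GE3, 95.9%, 98.4% and 98.3% of the genes had a lower ratio than *TNS4*. Of 12862 genes counted on all 8 arrays, 169 (1.31%) had the same signs as *TNS4*, below 0 on all 5 duplex arrays and above 0 on all 3 edited arrays, and 263 (2.04%) had the opposite signs throughout. With the smallest *TNS4* ratio, −0.63, as a limit on the distance from 0, only *TNS4* of the 169 was left. It meets this limit by construction, so the count carries no test. *ACOX2* had the same signs, and its ratio nearest to 0 was 0.53 in GE2.

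The size of the *TNS4* ratio after siDONSON depended on the signal processing. With normexp correction of the median signals and loess normalization, changed together in place of the processed signals, the 3 ratios were −0.49, −0.47 and −0.29, with a mean of −0.42. The mean was −0.64 for *miR-150-3p* and 1.31 for editing in that setting. When the mean of the other treatments was subtracted for each gene, to remove a dye bias shared by all arrays, the means were −0.95 for *miR-150-3p*, −1.57 for siDONSON and 2.33 for editing. The subtracted arrays hold *TNS4* ratios of their own, which enter these values. For editing all of them were below 0, and for each duplex group they were the edited arrays above 0 and the other duplex group below 0.

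*TNS3*, a long tensin, had a single probe (A_24_P346431), also well above background in both channels on all arrays. Its log2 ratio was −0.58 ± 0.21 for EBC-1 and −0.14 ± 0.20 for SK-MES-1. It was 0.46 ± 0.21 with siDONSON-1, −0.98 ± 0.23 with siDONSON-2 and 0.20 ± 0.21 with siDONSON-3, so the array of siDONSON-2 stood on the other side of 0. In GE1, GE2 and GE3 it was 0.27 ± 0.21, 0.36 ± 0.21 and 0.49 ± 0.21, and all edited arrays were above 0. With siDONSON-2, 3.02% of the genes had a lower ratio than *TNS3*, against 83.5% with siDONSON-1 and 68.1% with siDONSON-3.

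Of the 9 group means of *TNS1*, *TNS2* and *TNS3*, 0 passed the limma test over all genes, and 0 had an unadjusted p under 0.05. Over all genes, 4266 of 14229, 3771 of 14453 and 4817 of 15531 had one in the *miR-150-3p*, siDONSON and edited groups. For *TNS3* the mean was −0.36 after *miR-150-3p* (SE 0.30, 95% interval −1.06 to 0.34, adjusted p = 0.455), where 5.38% of 14229 genes were called in either direction. It was −0.11 after siDONSON (SE 0.25, 95% interval −0.68 to 0.46, adjusted p = 0.821), where 7.22% of 14453 genes were called, and without the siDONSON-2 array it was 0.33 (adjusted p = 0.182). After editing it was 0.37 (SE 0.25, 95% interval −0.20 to 0.95, adjusted p = 0.353), where 14.4% of 15531 genes were called. With the spread taken from the edited arrays alone, the same mean of 0.37 had an adjusted p of 0.0238 in limma. In that setting 5873 of 15531 genes were called. All 3 intervals use 1 spread shared by the groups, and on that spread they leave room for changes of either direction. The SD between arrays was 0.31, 0.76 and 0.11 in the *miR-150-3p*, siDONSON and edited groups, so the siDONSON arrays widened the other intervals. Without siDONSON-2, the mean of 0.37 after editing had an SE of 0.11 (adjusted p = 0.0675 in limma).

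*TNS2*, a long tensin that the array files list under its older symbol *TENC1*, stayed closer to 0. Its probe (A_23_P151297) gave 0.31 ± 0.25 for EBC-1 and 0.066 ± 0.22 for SK-MES-1. With siDONSON-1 it gave 0.26 ± 0.21, with siDONSON-2 −0.42 ± 0.21 and with siDONSON-3 −0.28 ± 0.21. The edited arrays gave −0.22 ± 0.21, −0.14 ± 0.21 and −0.00054 ± 0.21. The SBC-3 arrays lay on both sides of 0, and no edited array was further from 0 than about the error of the software. The means were 0.19 after *miR-150-3p* (SE 0.17, 95% interval −0.20 to 0.57, adjusted p = 0.490), −0.15 after siDONSON (SE 0.14, 95% interval −0.47 to 0.17, adjusted p = 0.531) and −0.12 after editing (SE 0.14, 95% interval −0.44 to 0.20, adjusted p = 0.605), and none passed the limma test.

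*TNS1*, the long tensin first described at focal adhesions, was read by 3 probes that did not give 1 answer. The probe A_24_P105733 was not well above background in green on any array and was counted on the GE3 array only, through its red signal. The probe A_33_P3209491 gave 0.79 ± 0.23 in EBC-1, 0.45 ± 0.23 in SK-MES-1, and 0.21 ± 0.23, −0.11 ± 0.28 and 0.63 ± 0.25 on the 3 siDONSON arrays. The probe A_33_P3738458 gave −1.62 ± 0.33 in EBC-1, −0.28 ± 0.27 in SK-MES-1, and −0.21 ± 0.22, −0.53 ± 0.23 and −0.36 ± 0.22 on the same siDONSON arrays. On 4 of these 5 duplex arrays the probes thus had opposite signs, the exception being siDONSON-2.

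In the edited cells, A_33_P3209491 gave −0.25 ± 0.21, 0.32 ± 0.21 and 0.27 ± 0.21, and A_33_P3738458 gave −1.93 ± 0.28, 0.15 ± 0.21 and −0.22 ± 0.21. GE1 stood apart from GE2 and GE3 with both probes. Both probes were dim, with control intensities of 57.6 to 261 over the 8 arrays. The mean over counted probes was −0.16 after *miR-150-3p* (SE 0.30, adjusted p = 0.744), −0.063 after siDONSON (SE 0.24, adjusted p = 0.897) and −0.28 after editing (SE 0.24, adjusted p = 0.489), none past the limma test. With A_33_P3209491 alone the means were 0.62, 0.24 and 0.11, so the direction of *TNS1* depended on the probe in all 3 groups. Without GE1 the mean after editing was 0.13.

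The tensins also differed in their control level from line to line, which played no part in choosing *TNS4*. Levels are log2 of the Cy3 intensity after Aquantile normalization and can be compared for the same gene only. For *TNS4* the level was 12.72 ± 0.024 in A549 (SD, n = 3), 11.10 for EBC-1 and 10.64 for SK-MES-1 (1 array each), and 8.63 ± 0.013 in SBC-3 (SD, n = 3). The A549 arrays ranged from 12.69 to 12.74 and the SBC-3 arrays from 8.61 to 8.64, far from overlapping. A549 exceeded SBC-3 by 4.09 (SE 0.032, adjusted p = 1.36e-08 in limma), a 17.1-fold difference. With 81% of 16428 genes called between these lines, a call is common, and 6.10% of the genes were at least as far apart as *TNS4*, where the median gene differed by 0.76. A549 was above EBC-1 by 1.62 (SE 0.045, adjusted p = 2.33e-06), where 73.5% of the genes were called, and SBC-3 minus SK-MES-1 was −2.01 (SE 0.045, adjusted p = 7.64e-07), where 77.3% were called. In these tests EBC-1 and SK-MES-1, with 1 array each, were assumed to vary like the other lines. EBC-1 was above SK-MES-1 by 0.46, which is 1 array against 1 and has no replicate check, so the order of these lines is not established.

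**Figure D2:**
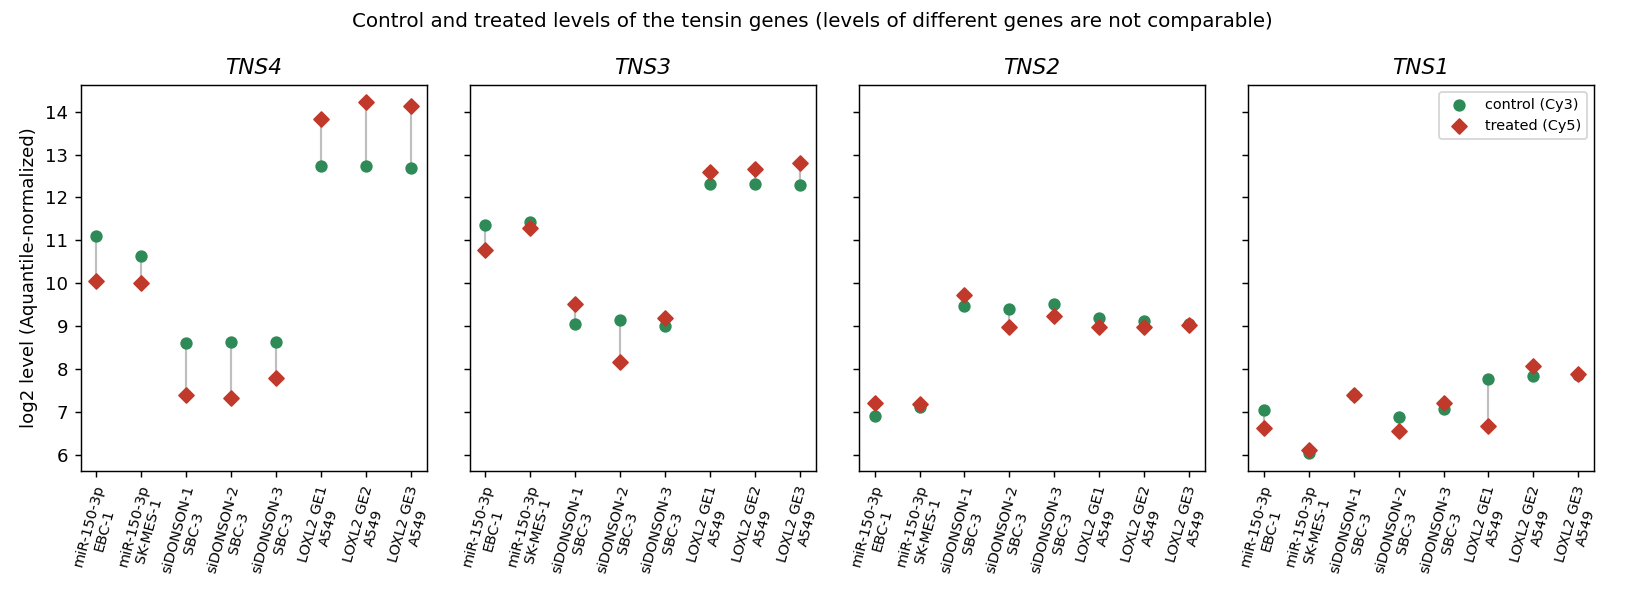
Log2 level (Aquantile-normalized intensity) of each tensin gene in control cells (Cy3, green circles) and treated cells (Cy5, red diamonds) on the 8 arrays, with a gray line joining the channels of an array. The control level of *TNS4* runs from about 8.63 in SBC-3 to 12.72 in A549, and the treated level lies below the control in the first 5 arrays and above it in the last 3.

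*TNS3* followed nearly the same order of lines. Its control level was 12.31 ± 0.0097 in A549 (SD, n = 3), 11.42 in SK-MES-1, 11.35 in EBC-1 and 9.07 ± 0.070 in SBC-3 (SD, n = 3). A549 exceeded SBC-3 by 3.24 (SE 0.046, adjusted p = 9.23e-08), a 9.48-fold difference. EBC-1 minus SK-MES-1 was −0.070, again 1 array against 1, where the fit called 66.9% of the genes with a spread taken from the other lines. *TNS3* and *TNS4* were thus both highest in A549 and lowest in SBC-3.

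*TNS2* had another order. Its control level was 9.47 ± 0.058 in SBC-3 (SD, n = 3), 9.12 ± 0.076 in A549 (SD, n = 3), 7.12 in SK-MES-1 and 6.90 in EBC-1. The level in A549 was below that in SBC-3 by 0.35 on the log2 scale (a difference of −0.35, SE 0.055, adjusted p = 0.00182), and that in SK-MES-1 below A549 by 2.00 (SE 0.078, adjusted p = 9.76e-06), where 70.1% of the genes were called. EBC-1 minus SK-MES-1 was −0.22, with 1 array each and no replicate check. *TNS2* was thus highest in the small cell line and lowest in both squamous lines.

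*TNS1* had the widest spread of the 4 among the SBC-3 arrays. Its level was 7.83 ± 0.046 in A549 (SD, n = 3), 7.12 ± 0.26 in SBC-3 (SD, n = 3), 7.05 for EBC-1 and 6.04 for SK-MES-1. A549 exceeded SBC-3 by 0.71 (SE 0.13, adjusted p = 0.00370). SBC-3 and EBC-1 did not differ past the threshold, with EBC-1 minus SBC-3 at −0.067 (95% interval −0.54 to 0.41, adjusted p = 0.763), where 77.1% of the genes were called. The level averages A_33_P3209491 and A_33_P3738458, which parted between these lines. The former was at 7.12 for EBC-1 and 6.24 to 6.99 in SBC-3, the latter at 6.98 and 7.54 to 7.80. In A549 they were at 7.69 to 7.82 and 7.86 to 7.99. The differences in *TNS1* level thus depended on the probe. EBC-1 was above SK-MES-1 by 1.01, with 1 array each and no replicate check.

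The green channels of arrays with the same line differed little. Over 22034 probes for SBC-3 and 23751 for A549, the median SD between arrays was 0.0764 in green and 0.224 in red for SBC-3, and 0.0632 in green and 0.0858 in red for A549. The labels do not say whether the controls of a line are 1 RNA. If they are, the tests of level leave out the spread between cultures.

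Genes that tensins work with were examined as lists, chosen with earlier results of these data known and described by counts. The integrins come first, since tensins bind their beta chains. Of 11 integrin genes, 9 were tested after *miR-150-3p*, and 1 was called lower, with 2.9% of all genes called lower. It was *ITGA6*, the alpha chain of a laminin receptor, at −0.48 in both EBC-1 and SK-MES-1 (adjusted p = 0.0493). The call was lost without any single array other than siDONSON-2, with the brightest probe of each gene, with no filter on dim probes, with the other treatments subtracted and with the group's own spread. Of 7 tested after siDONSON, 1 was called higher, with 4.01% of all genes called higher. It was again *ITGA6*, at 0.54, 0.38 and 0.62 (mean 0.51, adjusted p = 0.0217), and the call was lost without siDONSON-1, without GE3, with the brightest probe and with the group's own spread.

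Of 9 integrins tested after editing, 2 were called lower, with 6.77% of all genes called lower, and none higher. *ITGA6* was at −0.75, −0.99 and −0.83 (mean −0.86, adjusted p = 0.00225) and its beta partner *ITGB4* at −1.34, −1.55 and −0.98 (mean −1.29, adjusted p = 0.0108). The count of lower integrins was 1 without GE1 or without GE2, and 4 with the group's own spread. Over all genes, 265 of 15722, 208 of 15695 and 2852 of 15531 were called lower in these settings. *ITGB8*, named after its values were seen, had the integrin mean furthest above 0 after editing, with arrays at 0.34, 2.09 and 1.66 (mean 1.36, adjusted p = 0.0721), and 1 integrin was called higher without GE1 and with the group's own spread. Over all genes, 323 of 15722 and 3021 of 15531 were called higher in these settings. *ITGB1*, the beta chain shared by most integrins, had means of 0.42, −0.52 and 0.28 in the *miR-150-3p*, siDONSON and edited groups, none of them called. On the siDONSON arrays it was at 0.30, −2.06 and 0.20, with siDONSON-2 far below the others. The list medians were 0.076, 0.28 and −0.035, beside medians of 0.035, 0.031 and 0.022 over all genes tested.

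The adhesion adaptors link integrins to actin and to kinases. Of 18, 17 were tested after *miR-150-3p*, of which 2 were called lower and 1 higher, with 2.47% of all genes called higher. *PXN*, the scaffold paxillin, was at −0.99 for EBC-1 and −0.56 for SK-MES-1 (mean −0.78, adjusted p = 0.0390). *FERMT1*, the integrin activator kindlin-1, was at −0.96 and −0.55 (mean −0.75, adjusted p = 0.0428). *FERMT2*, kindlin-2, named after its values were seen, was higher at 0.66 and 0.47 (mean 0.56, adjusted p = 0.0376). All 3 calls were lost without EBC-1, without siDONSON-3, without any of the GE arrays, with no filter on dim probes and with the group's own spread.

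Of 16 adaptors tested after siDONSON, limma called 0, and 0 had an unadjusted p under 0.05, where 3.21% of all genes were called lower. Over all genes, 3771 of 14453 had an unadjusted p under 0.05. Of 18 tested after editing, 2 were called lower and none higher, beside 6.77% of all genes called lower and 7.58% called higher. *FN1*, fibronectin, the matrix ligand of fibrillar adhesions, was at −1.94, −1.98 and −1.20 (mean −1.70, adjusted p = 0.00606). *PTK2*, the focal adhesion kinase, was at −0.65, −0.46 and −0.69 (mean −0.60, adjusted p = 0.0115). The count of lower adaptors was 1 without any of the GE arrays and 5 with the group's own spread, and without siDONSON-2 3 adaptors were called higher. Over all genes, 265 of 15722, 208 of 15695 and 270 of 15689 were called lower without GE1, GE2 and GE3. With the group's own spread 2852 of 15531 were called lower, and without siDONSON-2 1469 of 15531 were called higher. *ILK*, the integrin-linked kinase, was at −0.13, 0.053 and 0.047 in the 3 groups and not called. The list medians were −0.13, 0.0036 and 0.043.

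**Figure D3:**
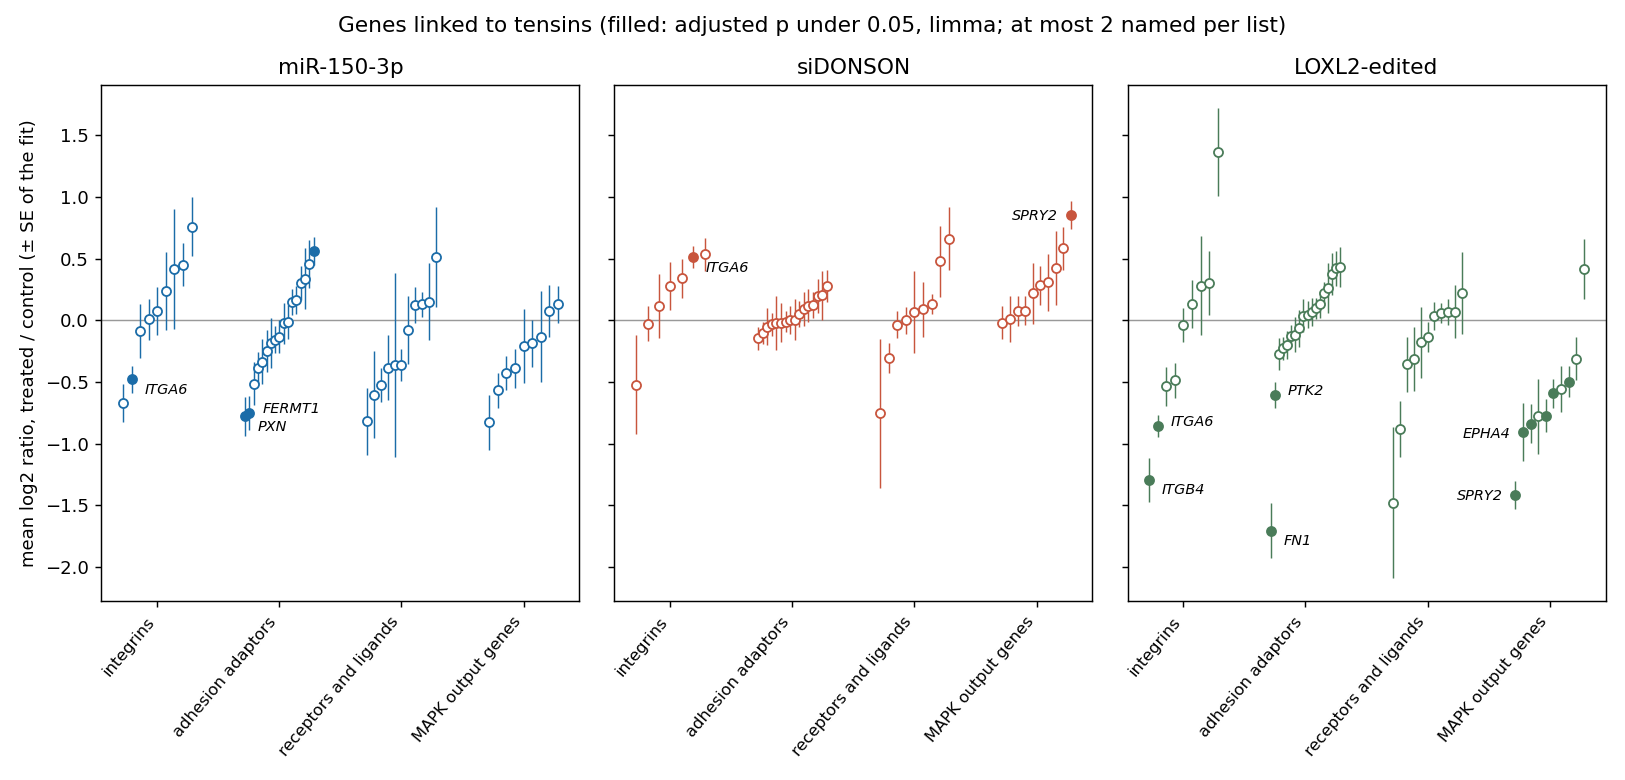
Mean log2 ratio of treated over control (± SE of the fit) for every tested gene of 4 lists linked to tensins, in the *miR-150-3p* (2 arrays), siDONSON (3 arrays) and *LOXL2*-edited (3 arrays) groups, with called genes filled and at most 2 per list named. Most called genes are in the edited group, where 6 of 10 MAPK output genes lie below 0 and are called, and no gene of the receptors and ligands is called in any group. Over all genes, calls are also most frequent in the edited group, at 14.4%, against 5.38% after *miR-150-3p* and 7.22% after siDONSON.

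The next list holds EGFR, MET and related receptors with their ligands. Of 11, 9 and 11 genes tested in the *miR-150-3p*, siDONSON and edited groups, 0 were called by limma, and 3, 2 and 2 had an unadjusted p under 0.05. Over all genes, 4266 of 14229, 3771 of 14453 and 4817 of 15531 had one in these groups. Without siDONSON-2, 1 was called lower in the *miR-150-3p* group, 1 higher in the siDONSON group and 1 lower in the edited group. Over all genes these calls numbered 517 of 14229, 632 of 14734 and 1314 of 15531. In the edited group 4 were called lower with no filter on dim probes or with the group's own spread, where 3914 of 22439 and 2852 of 15531 genes were. *AREG* and *EREG*, ligands of EGFR named after their values were seen, lay below 0 on every edited array, *AREG* at −1.43, −1.54 and −1.46 (mean −1.48, adjusted p = 0.146) and *EREG* at −0.84, −0.98 and −0.82 (mean −0.88, adjusted p = 0.0567). The other tested ligands of EGFR did not share this, as *TGFA*, *HBEGF* and *BTC* had means of 0.057, −0.18 and 0.071 after editing. On the siDONSON arrays *AREG* was at −3.10, 0.76 and 0.075. These arrays entered the shared spread and widened the *AREG* interval after editing (SE 0.61). *EGFR*, the receptor for epidermal growth factor, was at −0.57 for EBC-1 and −0.47 for SK-MES-1 (mean −0.52, adjusted p = 0.0640). Its mean was −0.00064 after siDONSON (95% interval −0.26 to 0.26) and 0.038 after editing (95% interval −0.22 to 0.30). *MET*, the receptor for hepatocyte growth factor, had means of 0.15, 0.66 and −0.31, and on the siDONSON arrays it was at 1.08, −0.30 and 1.21, with siDONSON-2 below the others. The list medians were −0.36, 0.071 and −0.14.

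The genes that report MAPK signaling, the kinase pathway that these receptors feed, differed between the groups in their counts. Of 9 tested after *miR-150-3p*, limma called 0 and 4 had an unadjusted p under 0.05, as 4266 of 14229 genes did, with a list median of −0.21. Without siDONSON-2, 3 of them were called lower, beside 517 of 14229 genes. After siDONSON, with 4.01% of all genes called higher, 1 of 10 was called higher, *SPRY2*, a feedback inhibitor of receptor signaling, at 1.07, 0.53 and 0.96 (mean 0.85, adjusted p = 0.0121). This call was lost without siDONSON-3 and with the group's own spread. After editing 6 of 10 were called lower and none higher, with 6.77% of all genes called lower and a list median of −0.68. *SPRY2* gave −1.49, −1.31 and −1.44 (mean −1.41, adjusted p = 0.000941) and *EPHA4*, an ephrin receptor, at −0.43, −0.60 and −1.69 (mean −0.91, adjusted p = 0.0475). The count fell to 3 without GE1 and to 1 without GE2 or without GE3. Over all genes, 265 of 15722, 208 of 15695 and 270 of 15689 were called lower without GE1, GE2 and GE3. After editing 9 of 10 list means were below 0, where *TNS4* was above 0. After siDONSON 9 of 10 were above 0, where *TNS4* was below 0. After *miR-150-3p* 7 of 9 were below 0, as *TNS4* was, with 0 called. The *TNS4* ratios chose the gene, so these signs carry no test. The differences of list counts between groups were not tested.

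The genes most like *TNS4* were sought by the root mean square difference of the log2 ratio over the 8 arrays, among the 12862 genes counted on all of them. The nearest was *FABP6*, an intestinal bile acid carrier, with a difference of 0.447. Its ratio was −1.003 for EBC-1 and −0.19 for SK-MES-1, −0.81, −0.31 and −1.23 on the siDONSON arrays, and 1.29, 1.59 and 1.65 on the edited arrays. Next came *KIAA1328* (0.536), *DACT3* (0.557), *ADGRG1* (0.558) and *ACOX2* (0.590). *ADGRG1*, an adhesion G protein-coupled receptor, was higher than *TNS4* on each edited array, at 1.83, 1.88 and 1.61, but near 0 with siDONSON-1 (−0.018). *DACT3* was above 0 with siDONSON-3 (0.075), so it lacked the sign pattern. No other tensin was among the 5. These genes were picked by closeness to the *TNS4* ratios, so signs shared with *TNS4* follow from the choice and carry no test.

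**Figure D4:**
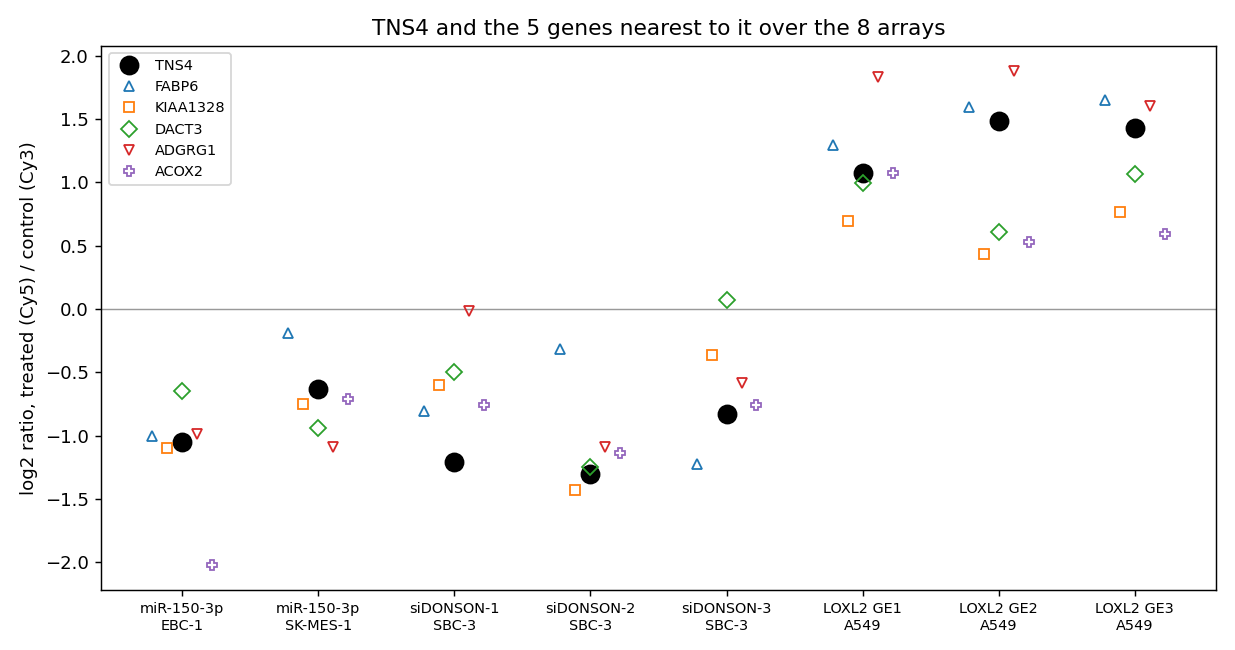
Log2 ratio of treated over control on each of the 8 arrays for *TNS4* (black circles) and the 5 genes with the smallest root mean square difference from it (open symbols). All 6 genes are above 0 on the 3 edited arrays, and all but *DACT3* with siDONSON-3 are below 0 on the 5 duplex arrays. The 5 genes were picked by closeness to *TNS4*, so the shared signs follow from the choice and carry no test.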

How the data were processed

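Total RNA of treated (Cy5) and control (Cy3) cells shared an array in each of 8 samples, grouped by their labels. The authors deposited the output of Feature Extraction software version 12.1.1.1, per the file headers. Its processed intensities were background-subtracted and normalized between dyes by the authors' software. A deposited table of log10 ratios holds the same values. From these intensities, log2 of red over green was taken in Python 3.11.15 (pandas 2.3.3). Control spots and outlier spots (81 to 133 of 60901 per array) were left out, and the log2 values of repeated spots were averaged. Probes well above background in either channel of an array were counted there, and their mean gave the gene's value. Probes were named through RefSeq accessions, of which 24782 of 26463 matched, among 50096 distinct accessions of any kind. The number of arrays limits the precision.

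Limma 3.58.1 (R 4.3.3) fitted 3 groups to 8 arrays with 5 residual degrees of freedom, two-sided, with Benjamini-Hochberg adjustment over genes with a value on every array of a group and a threshold of 0.05. The 3 groups shared 1 estimate of the spread per gene. Control levels were fitted over 4 lines after Aquantile normalization. The members and lists were chosen with earlier results of these data known. Besides the tensins, at most 2 called genes per list and group, *EGFR*, *MET*, *ITGB1*, *ILK* and the 5 genes nearest to *TNS4* were named, and 1 further list is not reported here. Alternatives were normexp (offset 50) with loess, where median signals stood in for mean signals because the files used here hold no mean signal, median centring, other filters, the brightest probe, subtraction of the other treatments, the group's own spread, the deposited ratio table and leaving out arrays. The fits were tested on simulated data.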

Additional observations from a re-analysis of the deposited data

Results flagged for a closer look

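*TNS1* had ratios of opposite sign in the squamous lines given *miR-150-3p*. The log2 ratio was −0.41 for EBC-1 and 0.083 for SK-MES-1, each the mean of the same 2 probes, which disagreed with each other in both lines. With 1 array per line, the difference between the lines was not tested.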

How the results depend on the processing

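*TNS4* has 1 probe above background on all arrays, so filters and the choice of probe could not move it, and its ratios chose the gene. Leaving out arrays gave *TNS4* means from −1.05 to −0.63 for *miR-150-3p*, −1.25 to −1.02 for siDONSON and 1.25 to 1.46 for editing. Its mean moved to −0.42 (normexp and loess) and −1.57 (other treatments subtracted) after siDONSON and to 2.33 (other treatments subtracted) after editing. Over 144 values of *TNS1*, *TNS2* and *TNS3* under alternatives, 1 passed the limma test, *TNS3* after editing with the group's own spread (0.37, adjusted p = 0.0238), and 11 changed sign. That setting called 5873 of 15531 genes after editing. With A_33_P3209491 alone, the probe with the highest mean log2 signal over both channels of all arrays, although dimmer in green than A_33_P3738458 on 6 of 8, *TNS1* was at 0.62, 0.24 and 0.11 in the *miR-150-3p*, siDONSON and edited groups. With the other treatments subtracted it was at 0.0055 after *miR-150-3p* and 0.17 after siDONSON, and with normexp and loess at 0.0065 after *miR-150-3p*. *TNS3* after siDONSON was at 0.040 with normexp and loess. Leaving out arrays gave *TNS1* means from −0.41 to 0.083, −0.16 to 0.067 and −0.53 to 0.13 in the 3 groups, and *TNS3* means from −0.39 to 0.33 after siDONSON. The cause was not tested. *TNS2* kept its sign throughout.

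The number of genes called over all genes moved more. After *miR-150-3p* it was 765, against 1536 with normexp and loess, 198 with no filter on dim probes, 0 with the group's own spread, and 1 to 2972 when an array was left out. After siDONSON it was 1043, against 2897 with no filter, 2787 with the other treatments subtracted, 26 with the group's own spread, and 97 to 1409 when an array was left out. After editing it was 2229, against 5375 with no filter, 5873 with the group's own spread, and 470 to 2889 when an array was left out.

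The control channels of the siDONSON and GE arrays showed no pairing by replicate number, as deviations of same-numbered channels correlated at −0.017, −0.025 and 0.016. If the controls of a line are 1 RNA, this check could not show a pairing of cultures. With the replicate numbers as a block, the *TNS4* difference between A549 and SBC-3 was 4.09 (adjusted p = 2.91e-05 in limma), and no tensin call changed. All 4 tensins kept this call under all 11 alternatives, with *TNS4* between 3.28 and 4.16 and *TNS1* between 0.26 and 0.85.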

Other observations

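A probe for a long noncoding RNA named for its position beside *TNS2* in the array files (lnc-TENC1-1:1) was well above background in both channels on all 8 arrays. Its log2 ratio was −0.68 for EBC-1 and 0.31 for SK-MES-1. On the siDONSON arrays it was 0.15, −0.062 and −0.14. In GE1, GE2 and GE3 it was −0.51, −0.47 and −0.60, where *TNS2* itself was at −0.22, −0.14 and −0.00054. The probe has no gene symbol through its accession and entered no test.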
